A study of Mus musculus with 4 samples.

Results

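The cytosolic ribosomal protein genes were taken from the gene table by symbol: Rpl or Rps followed by a number, with an optional a, x, y or l and a further digit, together with Rplp0, Rplp1, Rplp2 and Rpsa. Rps6k kinase genes and pseudogene symbols were left out, and 83 of the 20171 genes remained, 51 of the large subunit and 32 of the small subunit. In the isoform table these genes had 938 of 68012 isoforms. Ribosomal proteins under other names, such as Rack1 and Rpl36al, did not match the rule and are given beside the members as a separate list.

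The study sequenced full-length cDNA of single cells from mouse preimplantation embryos on the PacBio platform. Female C57BL/6J mice of 6 to 8 weeks, superovulated with gonadotropins, were mated with DBA/2NCrl males (the strain label of the samples names DBA/2J), and collection was timed from the hCG injection: unfertilised MII oocytes at 20 h, zygotes at 22 to 24 h, early 2-cell embryos (E2C) at 30 to 32 h, late 2-cell embryos (L2C) at 46 to 48 h, 4-cell embryos at 54 to 56 h, 8-cell embryos at 68 to 70 h, 16-cell and 32-cell embryos at 78 to 80 h, and early blastocysts at 88 to 90 h. Cells of the male mouse embryonic stem cell line E14 Tg2A (mESC), a single line, were included. No group carried an added allele or a treatment beyond this. The first 7 stages held 121 cells whose names gave their embryo of origin, and the replicates numbered 10 for oocytes, 9 for zygotes, 5 for E2C, 6 for L2C, 5 for 4-cell, 4 for 8-cell and 4 for 16-cell embryos. The 22 32-cell, 13 blastocyst and 5 mESC cells named no embryo or culture, so their values are ranges over cells with no test. By the run suffix of their barcodes all 32-cell cells came from a single run and all blastocyst cells from another. Run and stage cannot be told apart there. The E2C to 16-cell embryos were not assigned to runs here, so the part of the run in steps with these stages was not tested.

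Each embryo was taken as 1 replicate, and p-values measure the spread between these embryos. Values are copies per 100,000 unique molecular identifiers (UMIs) of a cell. A UMI counts a captured molecule once whatever its length. Levels of different genes are therefore compared as captured molecules and were not divided by length. Whether capture or cDNA purification depended on length was not tested. Depth ranged from 4985 to 389775 UMIs per cell, with a median of 38914, and the shallowest cell was a 4-cell blastomere. The labels were set against marker genes. The 5 oocyte genes summed to a median of 3547 copies in oocytes, 102 in L2C embryos and 272 in blastocyst cells. The medians were 199 at the 16-cell stage, 19.2 in 32-cell cells and 132 in mESC cells. The late 2-cell genes did not separate E2C from L2C embryos by their sum (medians 6.70 and 7.84 copies, 9.95 in 4-cell embryos). Mean levels of Zscan4c, Zscan4d, Zfp352 and Usp17la were higher at E2C than at L2C, against their listing as late 2-cell genes, and only Tdpoz4 was higher at L2C. By median the summed trophectoderm genes did not stand higher in blastocyst cells (31.1) than at the 16-cell stage (37.7). Their highest sums were 423 and 131 copies. Mean levels were higher in blastocyst cells for Krt8, Krt18, Tfap2c and Gata3, and lower for Cdx2. The 3 cumulus cell markers in the table stayed at or below 1.02 copies at every stage. The red blood cell genes summed to a median of 0 copies in oocytes, 8.61 at the L2C stage and 7.01 at the 4-cell stage.

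Ribosomal proteins are the protein part of the cytosolic ribosome, whose small subunit reads the mRNA and whose large subunit joins the amino acids. In most cells their mRNAs are among the most abundant and change together, and many begin with a terminal oligopyrimidine (TOP) tract, a C followed by a run of C and T, through which nutrient signalling adjusts their translation. The oocyte grows with a store of ribosomes and mRNAs, and in the mouse the embryo's own genome becomes broadly active during the 2-cell stage.

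The promoter windows of the members named most often below are printed first, so that genes at a high level in oocytes can be set beside genes that rose later, at the annotated start only. For Rpl41 most UMIs of L2C embryos lay on isoforms with another first exon, upstream of the window shown. RefSeq promoter sequences (GRCm38.p6) were matched for 63 of the 83 members. Each window runs 5′ to 3′ on the gene's strand from 40 bases before to 20 bases from the annotated start, and capitals mark a TOP run, here a C followed by at least 4 pyrimidines that begins within 5 bases of the start. Rps27l (chr9:66946046-66946105, plus strand), Rps15a (chr7:118116128-118116187, minus strand) and Rplp2 (chr7:141447611-141447670, plus strand) were the 3 members at the highest level in oocytes, Rpl38 (chr11:114668540-114668599, plus strand) had the largest log2(value + 1) rise from oocyte to 16-cell embryo, and Rpl41 (chr10:128549149-128549208, minus strand), Rpl24 (chr16:55966235-55966294, plus strand) and Rps25 (chr9:44407674-44407733, plus strand) rose steeply at the L2C stage.
Rps27l: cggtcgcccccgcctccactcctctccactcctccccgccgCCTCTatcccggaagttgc
Rps15a: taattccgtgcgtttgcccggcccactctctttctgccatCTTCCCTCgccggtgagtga
Rplp2: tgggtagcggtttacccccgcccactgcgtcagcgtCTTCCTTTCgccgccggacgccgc
Rpl38: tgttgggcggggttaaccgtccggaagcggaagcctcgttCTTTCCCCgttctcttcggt
Rpl41: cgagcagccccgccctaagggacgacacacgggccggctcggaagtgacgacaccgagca
Rpl24: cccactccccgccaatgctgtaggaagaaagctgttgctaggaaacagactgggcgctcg
Rps25: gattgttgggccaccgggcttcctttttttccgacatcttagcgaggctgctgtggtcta
A TOP run at an annotated start was found in 29 of the 63 matched members (46.0%) and in 21.2% of the 27025 genes of the promoter table. In the window of 250 bases before to 50 bases after the start, read on both strands, CCGGAAG, the core bound by ETS family factors such as GABPA, stood in 41.3% of the members and 9.93% of all genes, ATGGCG, the YY1 core, in 33.3% and 10.2%, GGGCGG, the SP1 box, in 61.9% and 38.2%, and TATAAA in 11.1% and 15.7%. The Rps27l, Rps15a and Rplp2 windows held a TOP run as the Rpl38 window did, and the Rpl41, Rpl24 and Rps25 windows held none under this definition. Some of these genes have more than 1 annotated start, and a match of letters is a description of the window.

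The share of all UMIs that came from the 83 members stayed near 1% through the E2C stage and was higher at the L2C stage and again at the 8-cell stage. In oocytes the share ran from 0.678% to 1.49% with a median of 0.925% (mean 0.947% ± 0.221, SD, n = 10), in zygotes from 0.639% to 1.48% with a median of 0.935% (mean 0.973% ± 0.256, n = 9), and in the 5 E2C embryos it was 0.780%, 0.993%, 1.13%, 0.881% and 1.12% (mean 0.980% ± 0.151). These 3 stages overlapped throughout. In the L2C embryos the share was 4.01%, 7.51%, 5.97%, 5.34%, 5.94% and 9.48% (mean 6.37% ± 1.90), 6.50 times the E2C mean, with every L2C embryo above every E2C embryo.

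The 5 4-cell embryos had shares of 8.53%, 8.13%, 10.3%, 11.6% and 9.57% (mean 9.62% ± 1.38). This was 1.51 times the L2C mean, and the ranges overlapped through L2C embryo 6. In the 4 8-cell embryos the share was 15.6%, 15.5%, 19.1% and 16.6% (mean 16.7% ± 1.67), 1.74 times the 4-cell mean and above every 4-cell embryo. The 4 16-cell embryos, at 15.6%, 22.4%, 12.8% and 16.9% (mean 16.9% ± 4.03), spread on both sides of the 8-cell values. From oocyte to 16-cell embryo the mean was 17.9-fold higher, without overlap. That fold starts from the 10 pooled oocytes, where members held 1.31% of isoform-table UMIs. In the 4 oocytes taken as whole in a separate run, described below, they held 0.294%. The 2 sets were not normalized together.

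Single cells of the later stages stayed in the same range. The share was 16.2% to 23.1% over the 32-cell cells with a median of 19.2%, 14.5% to 18.8% over the blastocyst cells with a median of 17.5%, and 15.9% to 20.0% over the mESC cells with a median of 18.6%. Within the 23 embryos with more than 1 sequenced cell, the highest cell exceeded the lowest by a median factor of 1.15 and by at most 1.85, in 16-cell embryo 4. The factor between sister cells was below the 6.50 between E2C and L2C means in every embryo.

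**Figure D1:**
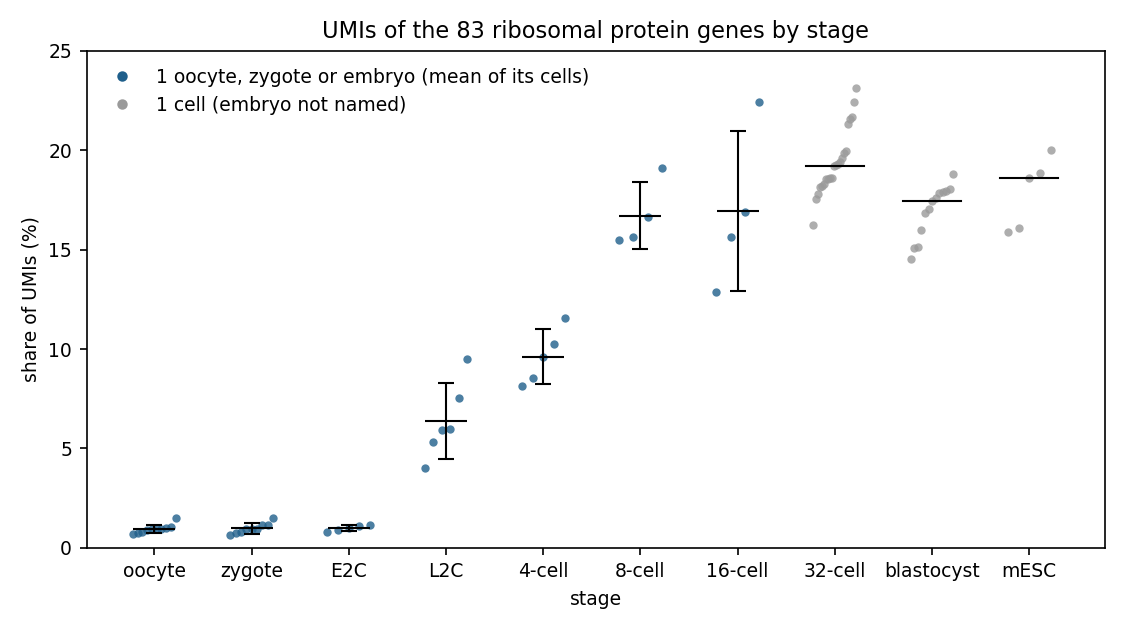
Share of a cell's UMIs that came from the 83 ribosomal protein genes (vertical axis, percent) at each stage. Blue points are oocytes, zygotes or embryos with the mean and SD as bars, grey points are single cells with their median as a line. The oocytes, zygotes and E2C embryos lie between 0.639% and 1.49%, all L2C embryos lie between 4.01% and 9.48%, and all 8-cell embryos lie above 15%.

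A share does not tell more ribosomal protein mRNA apart from less of other mRNA, and no measure of total RNA per embryo was used here. The 13 mitochondrially encoded genes took 5.18% ± 1.64 of UMIs in E2C, 11.8% ± 3.77 in L2C and 5.04% ± 3.79 in 8-cell embryos, and L2C embryo 1, the lowest of its stage for ribosomal protein UMIs, was the highest for these (18.9%); their part in the result was not tested. Runs were known for the oocytes and zygotes. In run 1 the mean share was 0.917% in oocytes (n = 5) and 0.989% in zygotes (n = 4), in run 2 1.04% (n = 1) and 1.22% (n = 2), and in run 3 0.963% (n = 4) and 0.788% (n = 3), so the order of the stages differed between runs.

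The summed shares of large and small subunit genes did not move in equal proportion. Small subunit genes took 0.571% ± 0.11 of UMIs in oocytes and large subunit genes 0.376% ± 0.114, whereas at the L2C stage the large subunit had 3.84% ± 1.09 and the small subunit 2.53% ± 0.824. In the 16-cell embryos the values were 9.93% ± 2.31 and 7.01% ± 1.73. Gene by gene, in the comparisons below, the order was the other way. The median log2 fold change from E2C to L2C was 2.79 for large and 3.23 for small subunit genes. From oocyte to 16-cell embryo the medians were 4.83 and 5.16. Rps27l and Rps15a, both of the small subunit, stood at 224 ± 30.4 and 135 ± 17.5 copies in oocytes.

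These 2 genes and Rplp2 were the leading ribosomal protein transcripts of the oocyte and made up 45.5% of all member UMIs there, 39.5% in zygotes and 33.4% in E2C embryos, by stage means. Rps27l, a close paralogue of the zinc-finger protein Rps27, accounted for 23.7% of member UMIs in oocytes, Rps15a, a core protein of the small subunit, for 14.3%, and Rplp2, of the stalk that recruits elongation factors, for 7.58%. The member of median level lay at 4.59 copies in oocytes, and 5 members had a stage mean below 1 copy. From the L2C stage Rpl41, the smallest ribosomal protein, led with 13.1% of member UMIs, and Rplp0 held 3.30%. The distribution then became more even, and the 3 leading genes together held 17.4% in 4-cell, 13.8% in 8-cell and 10.9% in 16-cell embryos. Without Rps27l, Rps15a and Rplp2, which were chosen for this after their levels were seen, the other 80 members held 0.516% ± 0.195 of UMIs in oocytes, 0.652% ± 0.105 in E2C and 6.07% ± 1.83 in L2C embryos, and every L2C embryo stayed above every E2C embryo.

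Genes were then compared one by one with limma on log2(value + 1) over the 43 oocytes, zygotes and embryos. A gene counted as called at a log2 fold change above 1 or below -1 with an unadjusted two-sided p under 0.01, the study's rule, and as passing the stricter rule at a Benjamini-Hochberg adjusted p under 0.05 over all 11682 genes tested. All 83 members passed the filter on low values, and fold changes of low genes are understated on this scale.

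From oocyte to zygote, after fertilisation, 2 members were called higher and 0 lower, where 2.92% of all genes were called higher. At the adjusted threshold 12 members were higher and 0 lower, against 11.3% of all genes higher, and with the sequencing run as a block 3 members passed it, as with edgeR, DESeq2 or no array weights. The number of called members was thus near what the whole table gave. Rpl11, which also binds and inhibits Mdm2 when free of the ribosome, ran from 1.11 to 15.0 copies with a median of 4.22 in oocytes and from 3.81 to 23.3 with a median of 13.2 in zygotes. It rose by 1.36 on the log2 scale (SE 0.24, limma, Benjamini-Hochberg adjusted p = 4.9e-05), and the stages overlapped. Rpl17, a protein near the exit tunnel of the large subunit, rose from a mean of 1.98 ± 1.41 to 5.84 ± 4.33 copies (log2 fold change 1.17, SE 0.23), and fell under the fold threshold with the sequencing run as a block (0.95) or without oocyte 7 and zygote 6 (0.99).

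From zygote to E2C embryo limma called 0 members, where 4.52% of all genes were called higher. At this step 7 members had an unadjusted p under 0.05, edgeR called 1 and DESeq2 called 0. No share of all genes is given beside these counts. At the adjusted threshold Rpl18, Rpl19 and Rpl4, all of the large subunit, were higher (3 members; 9.66% of all genes) and Rps15a was lower (1 member; 4.73% of all genes). Rps15a lay between 69.8 and 181 copies in zygotes (median 118) and at 45.4, 51.7, 75.8, 56.2 and 104 copies in the E2C embryos. It fell by 0.97 on the log2 scale (SE 0.21, limma, Benjamini-Hochberg adjusted p = 0.00086), while the stages overlapped.

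The L2C stage brought the broad change. Between E2C and L2C embryos 80 of the 83 members were called higher and 0 lower, where 25.6% of all genes were called higher. At the adjusted threshold 80 were higher (31.1% of all genes) and 1 was lower (27.8% of all genes). For 73 members every L2C embryo lay above every E2C embryo, which held for 13% of all genes. The median log2 fold change was 2.97 over the members and 0.03 over all genes. With values scaled by median-of-ratios size factors the median over all genes moved to -0.17, 79 members were called higher and 1 lower, and the split of all called genes turned from 2990 higher and 2664 lower to 2369 higher and 3308 lower.

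Rpl41 had the largest change on the log2(value + 1) scale, from 14.3, 26.9, 33.4, 42.5 and 83.8 copies in the E2C embryos to 440 to 1115 copies in the L2C embryos, with a median of 832. The lowest L2C embryo was more than 5 times above the highest E2C embryo, and the log2 fold change was 4.70 (SE 0.35, limma, Benjamini-Hochberg adjusted p = 3.3e-17). Rpl23a, which helps dock the signal recognition particle at the exit tunnel, went from a mean of 2.65 ± 2.56 to 55.7 ± 22.9 copies (log2 fold change 4.4, SE 0.52). Rpl24, at the bridge between the subunits, went from 5.14 ± 2.81 to 105 ± 25.5 copies (log2 fold change 4.35, SE 0.43). For both genes every L2C embryo was above every E2C embryo.

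The stalk proteins Rplp0, Rplp1 and Rplp2 rose unequally. Rplp0, the stalk base, lay at 33.7, 19.2, 36.5, 31.4 and 31.3 copies in the E2C embryos and between 139 and 322 in the L2C embryos with a median of 201 (log2 fold change 2.75, SE 0.28). Rplp1, its acidic partner, went from 12.6 ± 2.01 to 182 ± 78.6 copies (log2 fold change 3.78, SE 0.35). Rplp2 started higher, at 36, 58.3, 44.8, 67.3 and 75.1 copies, and ran from 70.8 to 192 in the L2C embryos, so that the stages overlapped. Its log2 fold change of 1.10 (SE 0.28, limma, Benjamini-Hochberg adjusted p = 0.00063) fell below 1 under median-of-ratios scaling (0.58), with edgeR (0.83), with DESeq2 (0.56), without E2C embryo 1 (0.96) and without L2C embryo 6 (0.93).

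Rpsa, the small-subunit protein also known as the laminin receptor precursor, held 2.00 to 2.40 copies in the 5 E2C embryos (mean 2.18 ± 0.144) and 20.4 to 37.1 with a median of 24.7 in the L2C embryos (log2 fold change 3.06, SE 0.42). Rps19, whose human counterpart is mutated in Diamond-Blackfan anaemia, went from 8.62 ± 2.72 to 88.0 ± 42.3 copies (log2 fold change 3.23, SE 0.50). Rps4x, the X-linked form of a small-subunit protein, had a log2 fold change of 2.77 (SE 0.44). Groups did not overlap for Rpsa, Rps19 or Rps4x.

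The 3 members not called were Rpl3, Rps15a and Rps27l. Rpl3, which sits at the peptidyl transferase centre, had 5.45, 6.52, 5.92, 3.17 and 3.79 copies in the E2C embryos and 2.48 to 19.2 with a median of 8.21 in the L2C embryos (log2 fold change 0.73, SE 0.47, limma, Benjamini-Hochberg adjusted p = 0.18). Rps15a had a log2 fold change of -0.08 (SE 0.29), with L2C values of 42.1 to 117 copies around a median of 48.7. Rps27l, at 130, 232, 220, 222 and 221 copies in the E2C embryos, ran from 92.9 to 188 with a median of 118 in the L2C embryos.

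Rps27l was thus the member that passed the adjusted threshold in the lower direction at this step. Its log2 fold change was -0.63 (SE 0.26, limma, Benjamini-Hochberg adjusted p = 0.032). E2C embryo 1 lay within the L2C range, and the other 4 E2C embryos lay above every L2C embryo. Under median-of-ratios scaling and with DESeq2 Rps27l also passed the fold threshold, at -1.14 and -1.26, 1 member called lower beside 79 called higher.

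**Figure D2:**
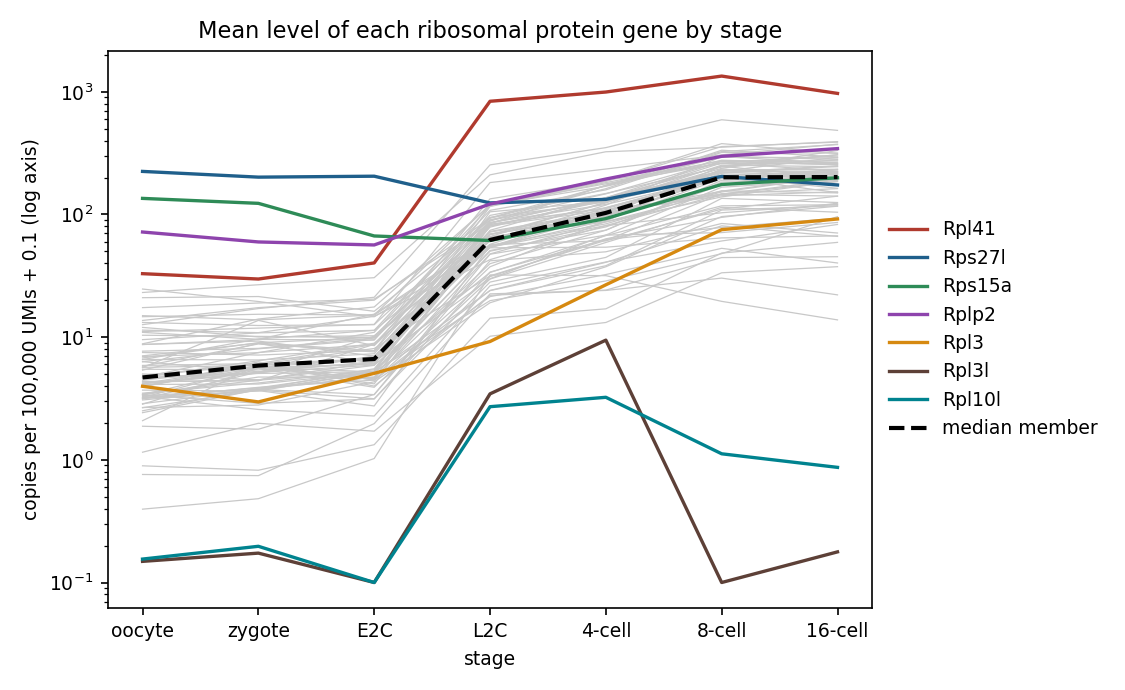
Mean level of each of the 83 ribosomal protein genes at the 7 stages with named embryos (vertical axis, copies per 100,000 UMIs plus 0.1, log axis). Grey lines are genes, coloured lines are the genes named in the legend and the dashed line joins the medians over the genes. The median climbs from 6.53 copies at E2C to 61.9 at L2C and 201 at the 8-cell stage, Rps27l goes from 205 to 124 copies at L2C, and Rpl3l and Rpl10l appear mainly at the L2C and 4-cell stages.

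From L2C to 4-cell embryos 4 members were called higher, where 2.41% of all genes were: Rpl3, Rpl8, Rpl32 and Rps2. At the adjusted threshold limma gave 0 members and 1.23% of all genes higher. By limma 20 members had an unadjusted p under 0.05, all of them higher, and edgeR gave 3 and DESeq2 18 members at the adjusted threshold. Without the share of all genes under the same rules, these counts are not read as a result about the members. The median log2 fold change was 0.65 over the members and -0.06 over all genes. Rpl3 had 33.4, 27.2, 16.4, 36.8 and 19.3 copies in the 4-cell embryos, overlapping the highest L2C embryo (log2 fold change 1.48, SE 0.53). Rps2, a small-subunit protein at the mRNA entry, had a mean of 53.7 copies in L2C and 110 in 4-cell embryos without overlap (log2 fold change 1.13, SE 0.34). The count of called members ran from 0, without 4-cell embryo 4, to 10, without L2C embryo 6.

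From 4-cell to 8-cell embryos 11 members were called higher, where 4.47% of all genes were, and 1 lower, where 10.5% were. The adjusted threshold gave the same counts, 11 higher (4.69% of all genes) and 1 lower (10.8% of all genes). For 54 members every 8-cell embryo lay above every 4-cell embryo, against 4.04% of all genes. The median log2 fold change was 0.76 over the members and -0.16 over all genes. The count of called members depended on the method, with 57 by edgeR, 48 by DESeq2, 35 under median-of-ratios scaling and 5 without 4-cell embryo 5, and the split of all called genes went from 522 higher and 1227 lower to 738 higher and 892 lower under median-of-ratios scaling. The counts by edgeR, by DESeq2 and without that embryo have no share of all genes beside them and describe only this dependence.

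Rpl36a, Rpl35a and Rpl3 led this step. Rpl35a had 27.1, 54.8, 30.5, 55.9 and 54.5 copies in the 4-cell and 137, 125, 155 and 123 copies in the 8-cell embryos, without overlap (log2 fold change 1.52, SE 0.37, limma, Benjamini-Hochberg adjusted p = 0.0025). Rpl36a had 39.9, 51.9, 39.7, 36.2 and 19.1 copies and then 70.3, 76.6, 96.2 and 141 (log2 fold change 1.53, SE 0.53). Rpl3 reached 61.1, 87.3, 66.9 and 85.0 copies in the 8-cell embryos (log2 fold change 1.5, SE 0.50), and was thus called at this step and not at L2C.

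Between 8-cell and 16-cell embryos limma called 0 members, where 1.9% of all genes were called higher, and 0 passed the adjusted threshold, where 0.779% of all genes were higher. By limma 1 member, Rpl21, had an unadjusted p under 0.05 and was lower, edgeR called 1 and DESeq2 called 0. The median log2 fold change was 0.07 over the members and 0.03 over all genes. For 1 member, Rpsa, every 16-cell embryo lay above every 8-cell embryo, against 1.84% of all genes, and for 1, Rpl41, every one lay below, against 1.69%. Rpsa had a log2 fold change of 0.43 (SE 0.42). Rpl41 stood at 1142, 980, 771 and 985 copies after 1443, 1297, 1443 and 1185 (log2 fold change -0.37, SE 0.35, limma, Benjamini-Hochberg adjusted p = 0.87).

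Over the whole course from oocyte to 16-cell embryo 79 members were called higher and 0 lower, where 26.8% of all genes were called higher. At the adjusted threshold 81 were higher, against 34.6% of all genes, and for 79 every 16-cell embryo lay above every oocyte, against 20.2% of all genes. The median log2 fold change was 4.92 over the members and 0.04 over all genes. These changes start from the 10 pooled oocytes, whose member share differed from that of the separate oocyte run. Rpl38, which in the mouse embryo is linked to the translation of Hox mRNAs, had 0.561 to 9.14 copies with a median of 2.28 in oocytes and a mean of 255 (139 to 355) in 16-cell embryos (log2 fold change 6.20, SE 0.37). Rps19, of the small subunit, was also among the steepest (log2 fold change 6.05, SE 0.40). The 4 members not called were Rps27l (log2 fold change -0.20, SE 0.21), Rps15a (0.52, SE 0.24), Rpl3l (0.03, SE 0.24) and Rpl10l (0.88, SE 0.26), all with overlapping groups, of which Rps15a and Rpl10l passed the adjusted threshold.

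**Figure D3:**
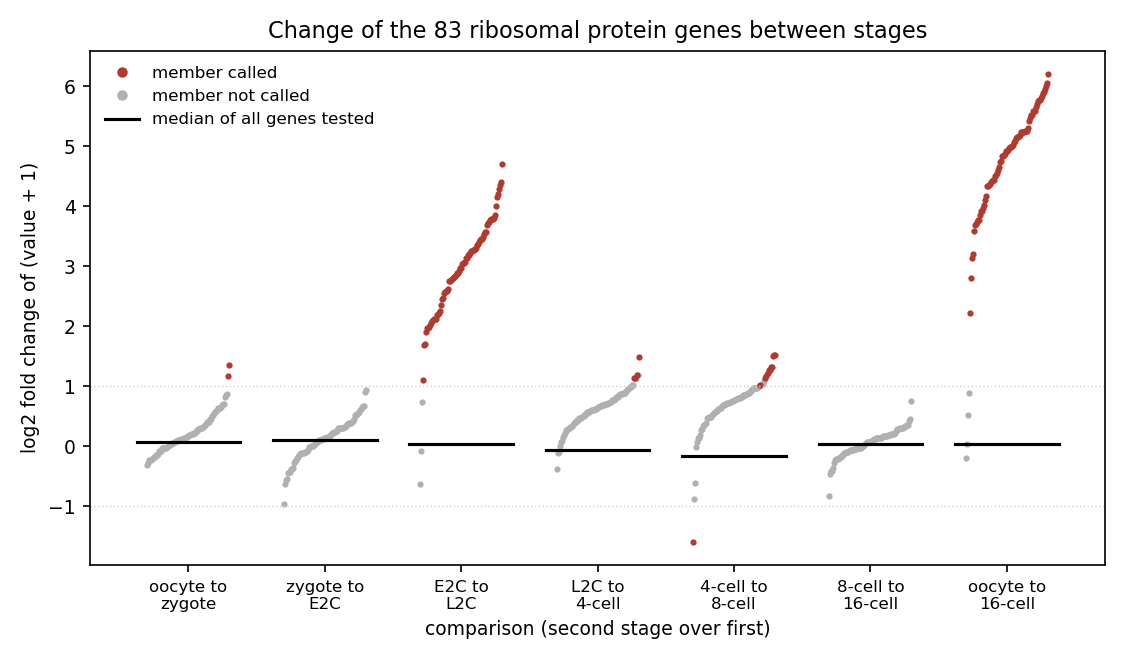
Log2 fold change of each of the 83 ribosomal protein genes (vertical axis, on values plus 1) in the 7 comparisons of stages, each group of points sorted by value. Red points are called members, grey points are members not called and black lines are the medians of all genes tested. In the E2C to L2C comparison 80 points are red and their spread lies far above the line at 0.03, and in the 8-cell to 16-cell comparison none is red.

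The members followed nearly 1 course over the stages. Across the 7 stage means, on the log2(value + 1) scale, Pearson's r of a gene with the median member had a median of 0.994. It is a description over 7 points that share their libraries. The median profile was taken from these same members, which favours a high r, and no r of other genes is given. The 5 lowest values belonged to Rps27l (-0.51), Rps15a (0.34), Rpl3l (0.35), Rpl10l (0.72) and Rpl21 (0.91). Rpl21, a large-subunit protein, had 0.925 copies in E2C and 32.0 in L2C embryos (log2 fold change 4.2, SE 0.37) and then 31.6, 19.5 and 13.7 copies in the 4-cell, 8-cell and 16-cell embryos. The later steps did not pass the test for this gene.

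By level over the 7 stage means, Rpl41 stood highest (606 copies), and Rplp0 (194), Rps27l (181) and Rplp2 (164) were among the 5 highest. The lowest were Rpl7l1 (14.5), Rpl22l1 (14.1), Rpl21 (14.1), Rpl3l (1.84) and Rpl10l (1.10). Neighbours in this order such as Rpl22l1 and Rpl21 had the same mean as printed. Many ribosomal protein genes have near-identical processed copies in the genome, and levels are uncertain where reads could be split between such copies or between paralogues.

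Paralogues of ribosomal proteins, which replace a core protein in some tissues, held a changing part of their pairs. Rps27l made up 98.3% ± 1.09 of the summed level of Rps27l and Rps27 in oocytes, 97.3% ± 2.19 in zygotes and 98.1% ± 0.46 in E2C embryos. It was 61.3% ± 3.08 in L2C embryos and was 54.1% ± 7.09 in 16-cell embryos. The L2C range of 57.5% to 65.4% lay wholly below the E2C range of 97.4% to 98.7%, and the change came with a rise of Rps27 from 4.06 to 80.6 copies (log2 fold change 4.14, SE 0.49) and the lower level of Rps27l given above. The mESC cells ran from 38.8% to 50%.

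Rpl39l, a testis-enriched paralogue of Rpl39 at the exit tunnel, held 62.8% ± 15.5 of its pair in oocytes, 55.1% ± 18.3 in E2C, 39.4% ± 6.97 in L2C and 24.4% ± 2.79 in 16-cell embryos. Oocyte values of 40.7% to 90.0% did not overlap the 16-cell values of 20.4% to 26.9%. The pair's summed level gave 33.4% over the 32-cell cells, 38.8% over the blastocyst cells and 4.16% over the mESC cells. Rpl39l itself rose at L2C, from 8.82 ± 4.85 to 53.4 ± 12.2 copies (log2 fold change 2.61, SE 0.35), while Rpl39 went from 6.79 to 82.8 copies.

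Rpl3l, known as the form of Rpl3 in striated muscle, and Rpl10l, a retrogene of X-linked Rpl10 used in the male germ line, had few UMIs outside the L2C and 4-cell stages and, for Rpl10l, the stages after. Rpl3l had 1 UMI over the 10 oocytes, 2 over the 9 zygotes and 0 over the 10 E2C cells, 18 UMIs over the 11 L2C cells, each of which had at least 1, and 13 over the 17 4-cell cells. It then had 0 UMIs over the 26 8-cell cells and 1 over the 38 16-cell cells. Set against a floor of 3 counts over the group of the stage at 0, the pooled level was at least 8.49-fold higher in L2C than in E2C cells and at least 6.49-fold higher in 4-cell than in 8-cell cells. Of the 13 4-cell UMIs, 4 came from 1 cell of 4985 UMIs, and that embryo stood at 40.1 copies against 2.99, 0, 1.23 and 2.41 in the other 4. Rpl3l was the member called lower from 4-cell to 8-cell, and it remained called without that embryo.

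Rpl10l had 0 UMIs over the E2C cells, 18 over the L2C and 17 over the 4-cell cells, at least 8.49-fold higher in L2C than in E2C cells by the same floor, and 8, 10, 20 and 8 UMIs over the 8-cell, 16-cell, 32-cell and blastocyst cells. It held 11.3% ± 8.12 of its pair with Rpl10 in L2C and 1.80% ± 1.74 in 16-cell embryos. Rpl22l1, the paralogue of Rpl22, held 12.2% ± 11.8 in oocytes, 14.7% ± 8.64 in L2C and 17.3% ± 11.2 in 16-cell embryos, and 44.2% over the blastocyst cells against 16.3% over the 32-cell cells, groups that by their barcodes came from different runs. Rpl7l1, a nucleolar relative of Rpl7, held 9.05% ± 7.35 in zygotes, 31.0% ± 7.05 in L2C and 10.7% ± 3.66 in 16-cell embryos. Rpl36al, outside the 83, held 52.7% ± 12.0 of its pair with Rpl36a in E2C, 81.6% ± 9.18 in L2C and 49.7% ± 6.77 in 16-cell embryos. Counting intervals and floors here cover counting error only.

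**Figure D4:**
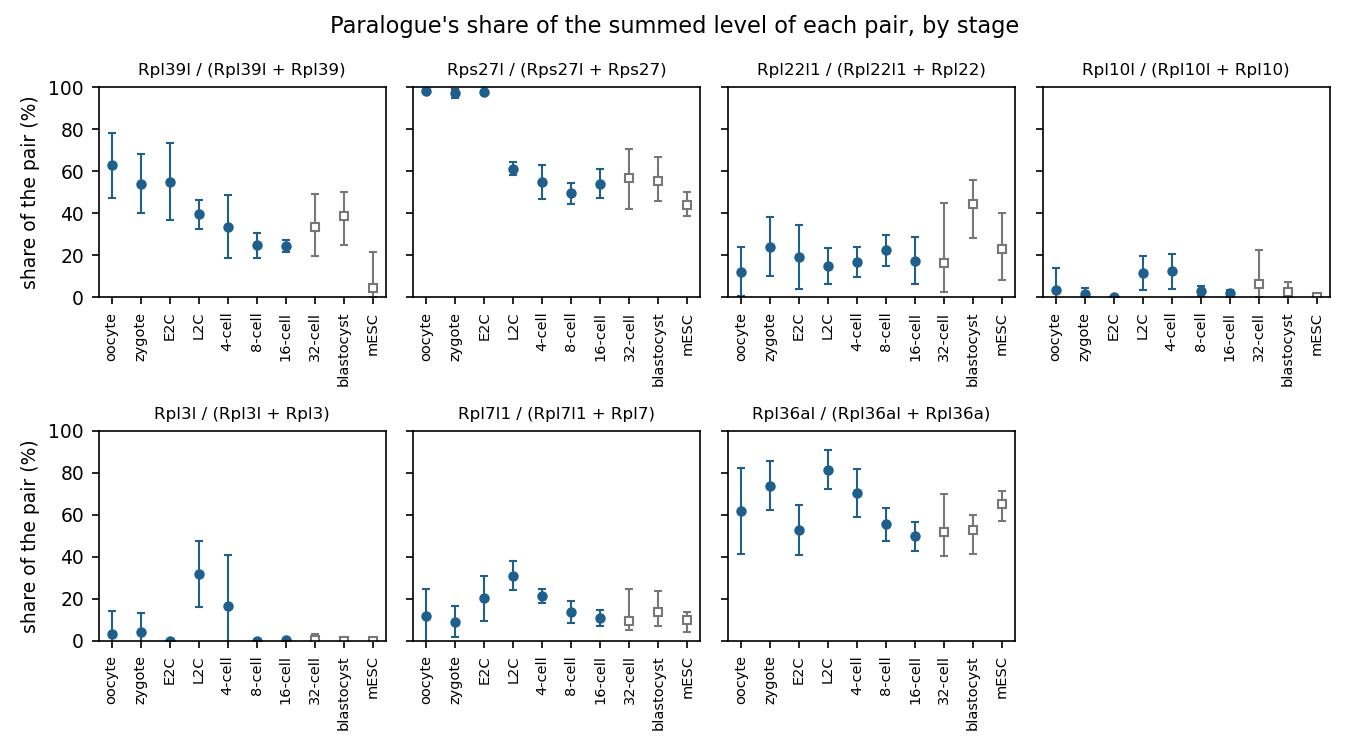
Share of the paralogue in the summed level of each pair (vertical axes, percent) by stage. Circles with bars are means and SD over oocytes, zygotes or embryos, open squares are the value over all cells of the stage with the range over cells. Rps27l drops from 98.1% at E2C to 61.3% at L2C, Rpl39l declines from 62.8% in oocytes to 24.4% at the 16-cell stage, and Rpl3l holds 31.8% of its pair at L2C, while its 4-cell mean rests on embryo 2.

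By their medians, related gene lists moved in the same direction at the E2C to L2C step, with fewer calls. Of the 4 ribosomal proteins under other names 3 were called higher. Of 14 other TOP mRNAs 7 were called higher, among them Eef2 (log2 fold change 1.43). Eef1a1 (0.97), Tpt1 (0.36) and Hnrnpa1 (-0.41) were not called. Of the 78 mitochondrial ribosomal protein genes tested 42 were called higher and 7 lower. Median log2 fold changes were 3.48, 1.20 and 1.37, beside 2.97 for the members and 0.03 for all genes. From oocyte to 16-cell embryo 4 of 4, 12 of 14 and 61 of 78 were called higher, with 2 of the mitochondrial list lower. The 83 members were thus called more often at L2C than either longer list, and no test between lists was made.

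At the isoform level the members had a median of 10 isoforms per gene, against 4 over 10482 genes, and the leading isoform held a median of 80.0% of a member's UMIs. The leading isoform was classed as a full splice match for 81 of the 83 members, and 17 members had more than 90% of their UMIs on it. The most isoforms were listed for Rpl13a (37), Rpl23 (24), Rpl4 (23), Rpl41 (23) and Rpl17 (22). Between E2C and L2C embryos 232 of the 565 member isoforms tested were called higher (12.9% of all isoforms) and 1 lower (13.1%). Between 4-cell and 8-cell embryos 159 were called higher (3.63% of all isoforms) and 7 lower (4.3%), and between 8-cell and 16-cell embryos 14 were called lower (0.921% of all isoforms) and 7 higher (1.05%).

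Isoforms with a splice site outside the annotation (class NNC of SQANTI3) held 2.00% ± 0.75 of member UMIs in oocytes and a median of 2.36% in E2C embryos, then 16.4% ± 3.56 in L2C and 13.2% ± 2.49 in 4-cell embryos. They held 8.66% ± 0.51 in 8-cell and 5.51% ± 1.52 in 16-cell embryos, and the mESC cells lay between 0.59% and 0.75%. Over all genes the same class held 5.63% ± 0.44 in E2C and 4.83% ± 0.83 in L2C embryos. The members' L2C share came almost wholly from Rpl41 and Rplp0.

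Both genes had isoforms whose first exon lay upstream of the annotated gene. In Rpl41, which GENCODE vM21 places at chr10:128548114-128549305 on the minus strand, isoform PB.9518.1 began with an exon at chr10:128551634-128551972, 2329 bases upstream, spliced to the same internal exons and last exon as the annotated isoform PB.9518.2, whose own first exon was chr10:128549088-128549331. In Rplp0, at chr5:115559467-115563727 on the plus strand, isoforms PB.58793.18 (first exon chr5:115557315-115557416) and PB.58793.1 (first exon chr5:115557227-115557416) had first exons that ended 2051 bases upstream of the gene, and PB.58793.18 shared the second to seventh exons of the annotated isoform PB.58793.78. No annotated gene overlapped either upstream exon, and the outer ends are those of the merged isoforms as listed. These isoforms, and Rplp0 among the genes described by isoform, were chosen after their values were seen.

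For Rpl41 the upstream-first-exon isoforms together held 17.5% to 61.1% of the gene's UMIs in oocytes with a median of 28.9%, and 46.3% ± 9.57 in E2C embryos. In L2C embryos they held 89.3% to 97.3% with a median of 93.9% (mean 93.5% ± 2.94), above every E2C embryo, whose highest was 59.1%. The share was 90.1% ± 3.85 in 4-cell, 90.1% ± 4.18 in 8-cell and 73.3% ± 9.07 in 16-cell embryos. Over single cells its median was 48.8% at the 32-cell stage, 42.8% in blastocysts and 4.08% in mESC, where no cell was above 5.88%.

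In levels, the main upstream isoform of Rpl41 went from 22.8 ± 9.65 copies in E2C to 907 ± 237 in L2C embryos (log2 fold change 5.42, SE 0.40, limma, Benjamini-Hochberg adjusted p = 8.3e-17), on the total of the isoform table. The annotated isoform went from 33.4 ± 27.5 to 50.5 ± 16.6 copies in the same embryos (log2 fold change 0.98, SE 0.51, limma, Benjamini-Hochberg adjusted p = 0.13) and was not called. It then reached 133 ± 64.9 copies in 8-cell and 284 ± 137 in 16-cell embryos, steps that were not called, and lay between 474 and 832 copies over the mESC cells. At L2C the main upstream isoform alone made up 11.8% ± 2.42 of all member UMIs.

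For Rplp0 the upstream isoforms held 1.72% to 22.0% of the gene's UMIs in oocytes with a median of 7.96%, 22.1% ± 12.9 in E2C, 60.2% ± 20.8 in L2C and 63.6% ± 12.7 in 4-cell embryos. They held 19.4% ± 6.57 in 8-cell embryos, all 4 of which lay below every 4-cell embryo, and the medians over cells were 3.88% at the 32-cell stage, 4.86% in blastocysts and 2.06% in mESC. E2C and L2C embryos overlapped between 28.7% and 35.3%. Isoform PB.58793.18 rose from 7.08 to 122 copies between E2C and L2C embryos (log2 fold change 3.92, limma, Benjamini-Hochberg adjusted p = 0.00024), PB.58793.1 from 3.03 to 77.9 (3.25), and the annotated PB.58793.78 from 15.0 to 37.9 (1.19). PB.58793.1 was then called lower from 4-cell to 8-cell embryos, from 122 to 29.7 copies (log2 fold change -2.35, limma, Benjamini-Hochberg adjusted p = 0.062), and PB.58793.78 was called higher, from 66.6 to 170 copies (1.27).

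Such isoforms were listed for 17 of the 83 members and for 672 of the 10281 other genes assessed. The members also had more listed isoforms per gene. In the members such isoforms held 15.4% ± 3.50 of UMIs at L2C. Without Rpl41 and Rplp0 the other 81 members had 0.132% ± 0.0682 on them at L2C, and all genes outside the members had 0.739% ± 0.184, beside 0.919% ± 0.0967 at E2C. Nearly all upstream-first-exon UMIs of the members thus came from 2 genes. No promoter sequence is printed for the upstream exons because no genome sequence was used here.

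**Figure D5:**
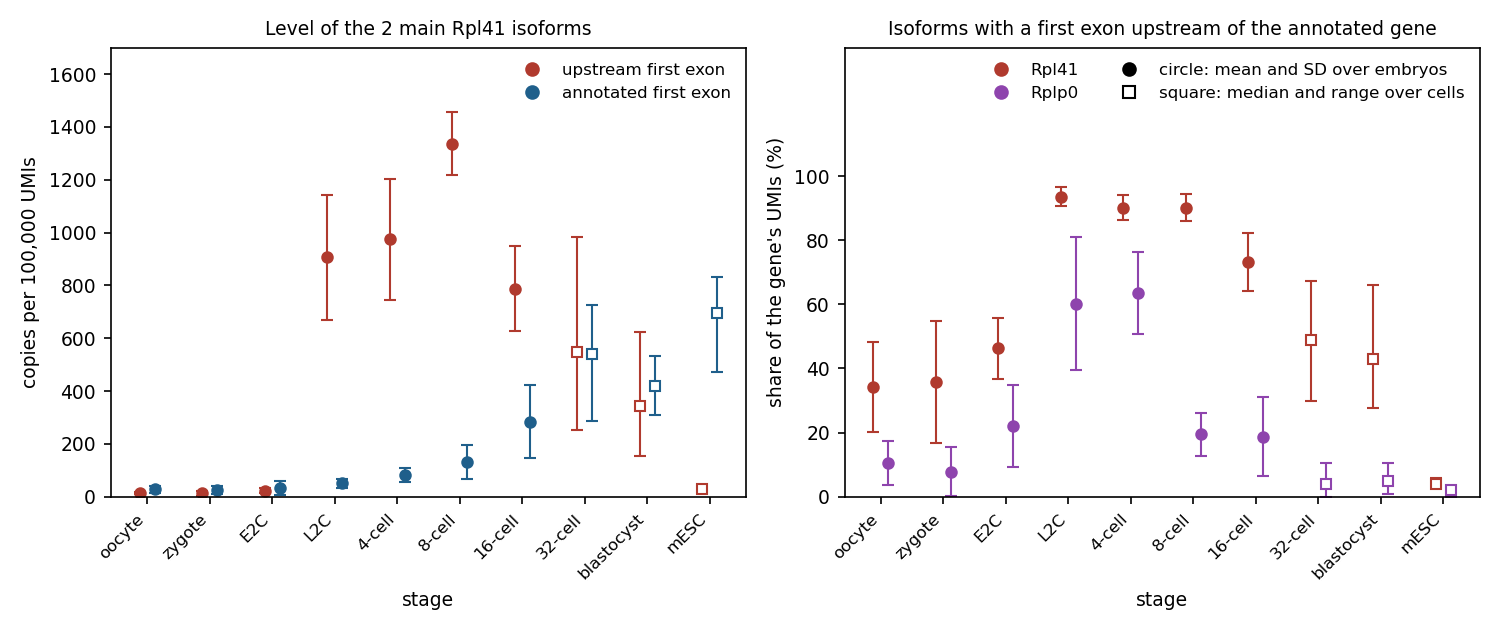
Left, level of the 2 main Rpl41 isoforms (copies per 100,000 UMIs) by stage, and right, share of the UMIs of Rpl41 and Rplp0 (percent) on isoforms whose first exon lies upstream of the annotated gene. Circles with bars are means and SD over oocytes, zygotes or embryos, and open squares are medians with the range over cells. The upstream Rpl41 isoform reaches 907 copies at L2C while the annotated one is at 50.5, the Rplp0 share is near 60% at L2C and 4-cell and near 20% at the 8-cell and 16-cell stages, and in mESC both shares are below 6%.

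The separate run of 16 oocyte libraries, which held no later stage, allowed the same isoforms to be read in oocytes alone. Of these, 4 libraries with b5 in their names were taken to belong to this run. The main upstream isoform of Rpl41 took 3 of 184 Rpl41 UMIs there (1.63%, exact binomial 95% interval 0.338% to 4.69%), against 188 of 639 (29.4%, 25.9% to 33.1%) in the 10 oocytes whose cDNA was pooled with that of embryos. The upstream isoforms of Rpl41 listed for the embryo libraries together took 18 of 184 (9.78%) and 198 of 639 (31.0%). Isoforms listed only for the separate run were not assessed for an upstream first exon, here or for Rplp0. For Rplp0 the order was the other way, with 82 of 382 (21.5%, 17.5% to 25.9%) in the separate run and 44 of 456 (9.65%, 7.10% to 12.7%) in the 10 oocytes. The intervals cover counting error of UMIs summed over libraries only, and not the spread between oocytes. Single oocytes of the 10 ran from 17.5% to 61.1% for all upstream isoforms of Rpl41. The part of the run in the differences between the separate run and the 10 oocytes was not tested. The oocyte shares above hold for the pooled libraries.

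Formal tests of isoform shares within genes called few members. From zygote to E2C embryo 1 member was called, where 0.662% of all genes tested were. In Rpl27a, of the large subunit, isoform PB.68699.36, a new combination of known splice sites, held 0% in zygotes and 25.9% ± 14.0 in E2C embryos (limma on arcsine shares with Simes' method, Benjamini-Hochberg adjusted p = 0.0019 for the gene). The E2C embryos had 33 Rpl27a UMIs in all. From E2C to L2C embryo 0 of 81 members were called at an adjusted gene p under 0.01, where 2.78% of all genes were. Rpl41, Rpl37a, Rps27 and Rps24 had adjusted gene p of 0.013 to 0.014, and with isoforms of at least 5% mean share only, Rpl41, Rpl37a and Rps24 were called, 3 of 70 members where 4.73% of all genes were.

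The following shares are given as values, since no member was called between E2C and L2C embryos without that limit on share. In Rpl37a, a zinc-finger protein of the large subunit, PB.1939.1 held 35.1% ± 15.9 in oocytes, 54.8% ± 14.3 in E2C and 82.7% ± 7.65 in L2C embryos, while PB.1939.3 and PB.1939.32, listed with a last exon ending further downstream, held 37.9% ± 17.9 and 16.9% ± 12.7 in oocytes and 0.633% ± 0.567 and 0.142% ± 0.349 in L2C embryos. In the separate oocyte run PB.1939.1 held 12 of 139 UMIs (8.63%) against 108 of 280 (38.6%) in the 10 oocytes. Rps24, of the small subunit, had its isoform PB.22851.47 at 0% in E2C and 9.64% ± 0.634 in L2C embryos. In Rpl13a, which has a further role in the interferon response, the full splice match PB.67005.62 held 32.4% ± 14.7 in oocytes and 72.1% ± 7.16 in L2C embryos, and PB.67005.1 went from 42.9% ± 10.4 to 9.11% ± 7.19. Rps27l, Rps15a and Rplp2 kept 1 isoform above 80% at each of the 7 stages, with 97.4% ± 0.464, 94.3% ± 1.67 and 96.7% ± 1.62 in oocytes.

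In the separate run, whole oocytes were compared with oocytes cut into 1/2 and 1/4 parts before the reaction. The 4 libraries with b5 in their names were taken as the whole oocytes, which the names do not state. Nor do the names say which parts came from the same oocyte, and the SDs are over libraries. The share of isoform-table UMIs on members was 0.294% ± 0.0407 in the 4 whole oocytes, 0.392% ± 0.0851 in the 6 libraries of 1/2 oocytes and 0.397% ± 0.130 in the 6 of 1/4 oocytes. The 3 ranges overlapped, with 0.247% to 0.344%, 0.284% to 0.511% and 0.318% to 0.656%. In the 10 pooled oocytes the same measure was 1.31% ± 0.314, and the tables were not normalized together, so that no test was made between them. Rps27l led in both, with 114 ± 18.3 copies in the whole oocytes of the separate run, before Rps15a with 36.6 ± 13.1 and Rplp2 with 16.8 ± 6.33.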

How the data were processed

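Members and gene lists were chosen with earlier results of these data known. The authors sequenced pooled full-length cDNA of barcoded cells and mapped it to mm10. They collapsed isoforms with cDNA_Cupcake, classified them with SQANTI3 and kept isoforms found in at least 5 cells. The paper names no annotation release for the SQANTI3 step, and GENCODE vM21 was used here for gene ranges. The deposited values are UMI counts scaled per 100,000, that is CPM divided by 10 (a score here). Whole UMI counts were recovered from the deposited values in 100% of cases (tolerance 0.1) and served only in alternatives and sums. Stage and embryo came from the column names, since GEO groups all libraries as preimplantation embryos; whether an embryo number recurs in another run is not known. Cells were averaged per embryo. limma 3.58.1 (R 4.3.3; trend, array weights) was fitted to log2(value + 1) over 7 stages, for genes with at least 1 copy in at least 4 embryos, with Benjamini-Hochberg adjustment. Named members were the up to 3 called with the steepest change per comparison, the 5 highest and 5 lowest, paralogues, stalk genes, Rpsa, Rps19, the 5 with most isoforms, called switches and the 5 least like the median; some of these are not reported here. Alternatives used edgeR 4.0.16 and DESeq2 1.42.0; scripts were tested on simulated data.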

Additional observations from a re-analysis of the deposited data

Results flagged for a closer look

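Of 92 groups of 4 to 10 samples tested, 14 (15.2%) had a sample far from the others by Dixon's criterion. Its rate of about 1 in 20 holds for independent groups. These groups share libraries, and the Rpl3l values flagged in oocytes and 16-cell embryos rest on 1 UMI each. The count is therefore not read against that rate. Oocyte 7 had a ribosomal protein share of 1.49% against at most 1.04% in the others, with 21.3 copies of Rps19 and 9.65 of Rpsa. Zygote 6 stood high for Rps19 (22.0 copies), Rplp1 (28.2) and Rpsa (6.51). In the split-oocyte run, 1 library of the 1/4 oocytes had a share of 0.656% against 0.318% to 0.388%. E2C embryo 1 was low for Rps27l, at 130.0 copies against 220 to 232. L2C embryo 6 was high for Rps15a (117 copies). 4-cell embryo 2 was high for Rpl3l (40.1 copies) and low for Rpl39l (17.1). Rpl3l was at 0.487 copies in oocyte 8 and 0.311 in 16-cell embryo 2, with the others of each group at 0. 16-cell embryo 2 was high for Rpsa (121 copies).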

How the results depend on the processing

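The E2C to L2C and oocyte to 16-cell counts stayed within 1.5 times under every alternative run. Elsewhere called members changed as follows, given without the share of all genes under each alternative. Oocyte to zygote (2): 6 with a pseudocount of 0.1, 1 with the sequencing run as a block and 1 without oocyte 7 and zygote 6. Zygote to E2C (0): 2 with that pseudocount, 1 each without the filter, with median-of-ratios scaling and with edgeR, and 0 to 2 leaving out 1 embryo. L2C to 4-cell (4): 1 without the filter, 14 without array weights, 9 with median-of-ratios scaling, 9 with DESeq2, and 0 to 10. From 4-cell to 8-cell (12): 5 with the pseudocount, 22 without weights, 35 with median-of-ratios scaling, 57 with edgeR, 48 with DESeq2, and 5 to 12. From 8-cell to 16-cell (0): 1 with edgeR, and 0 to 1. Adjusted counts were, for oocyte to zygote (12), 4 without the filter, 3 without weights, 7 with median-of-ratios scaling, 3 with edgeR, 3 with DESeq2 and 3 with the run block; for zygote to E2C (4), 1 with edgeR, 2 with DESeq2 and 2 to 5; for L2C to 4-cell (0), 15 without weights, 6 with median-of-ratios scaling, 3 with edgeR, 18 with DESeq2 and 0 to 3; for 4-cell to 8-cell (12), 4 with the pseudocount, 7 without the filter, 28 without weights, 38 with median-of-ratios scaling, 60 with edgeR, 54 with DESeq2 and 5 to 11. Called isoforms were, for oocyte to zygote (2), 17 with the pseudocount; for zygote to E2C (6), 12 with the pseudocount, 2 without weights and 1 to 8; for L2C to 4-cell (19), 45 without weights; for 4-cell to 8-cell (166), 81 with the pseudocount; for 8-cell to 16-cell (21), 10 with the pseudocount, 13 without weights and 16 to 42. E2C to L2C switches went from 0 to 3 with a mean share of at least 0.05. The members' share was 1.31%, 1.35%, 1.58%, 8.76%, 12.2% and 19.8% from oocyte to 8-cell in the isoform table, and 1.28%, 8.46%, 12.7% and 20.3% from E2C to 8-cell over genes found in every stage. The cause was not tested. The alternatives without oocyte 7 and zygote 6 and without each L2C embryo were chosen after seeing the data. No paired analysis was possible because the stages hold different embryos. Depth limits Rpl3l and Rpl10l, which rest on few UMIs.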
